A study of Homo sapiens with 4 samples.

Results

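The machinery that carries a cell from late G1 into mitosis was followed in HepG2, a human hepatocellular carcinoma cell line, through 10 genes: the E cyclins CCNE1 and CCNE2, the A cyclin CCNA2, the B cyclins CCNB1 and CCNB2, CCNF (cyclin F), the kinases CDK1 and CDK2, and the phosphatases CDC25A and CDC25C. The 10 genes were listed by name for their roles, at a time when earlier results of these data were known, and each was found once among the 24462 gene symbols of the count tables. Messenger RNA was measured by QuantSeq, which sequences the 3′ end of each transcript, in 4 libraries of 1 condition each. The 4 conditions were DMSO, the solvent of the drug; PD0332991 (palbociclib), a small-molecule inhibitor of CDK4 and CDK6; scrambled siRNA; and CDK4/6 KD, a knockdown of CDK4 and CDK6. All 4 came from the same line, for which the labels give no other allele or agent, grown in RPMI with fetal bovine serum. The dose of PD0332991 and the times of treatment and transfection for the sequenced cells were not given in the sources used here.

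Cyclins are the regulatory subunits that switch on cyclin-dependent kinases, and their amounts rise and fall through the cell cycle. When cyclin D bound to CDK4 or CDK6 phosphorylates the retinoblastoma protein, E2F factors are released and E2F target genes, the E cyclins and CDC25A among them, are transcribed. Cyclin E with CDK2 starts DNA replication, cyclin A with CDK2 and then CDK1 runs S phase and G2, and cyclin B with CDK1 drives mitosis. CDC25 phosphatases remove the inhibitory phosphates from CDK1 and CDK2, and cyclin F is an F-box protein that hands other proteins to ubiquitin ligases instead of activating a kinase. Genes of G2 and mitosis are controlled by the DREAM complex and by MYBL2 and FOXM1, which act on promoters through CHR elements. CCAAT elements, which are not the binding sites of these factors, were searched as well. In the adult liver most hepatocytes are quiescent and hold little of these transcripts, whereas hepatocellular carcinoma lines cycle.

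Promoter sequences are shown for the genes whose levels differed most and least between conditions, so that the elements named above can be seen in place. RefSeq (GRCh38.p14) gave promoters for 8 of the 10 genes, and for CDK1 and CDC25C it gave more than 1 start site. Each line below holds the 150 bases before the start site, 5′ to 3′ on the strand of the gene, with matches to the searched letters in capitals. CDK1 and CDC25A had the lowest fold changes of the 10 genes in CDK4/6 KD, CCNB1 and CCNB2 are the paired B cyclins, and CCNE1 had a fold change near 1.
CDK1, chr10:60778328-60778477, plus strand: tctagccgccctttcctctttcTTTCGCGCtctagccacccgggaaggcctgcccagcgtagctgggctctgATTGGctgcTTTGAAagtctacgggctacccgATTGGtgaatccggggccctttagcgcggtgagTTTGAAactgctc
CDC25A, chr3:48188418-48188567, minus strand: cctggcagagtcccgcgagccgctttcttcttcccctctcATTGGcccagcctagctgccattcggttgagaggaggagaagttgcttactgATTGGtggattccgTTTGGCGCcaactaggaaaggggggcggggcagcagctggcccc
CCNB1, chr5:69167000-69167149, plus strand: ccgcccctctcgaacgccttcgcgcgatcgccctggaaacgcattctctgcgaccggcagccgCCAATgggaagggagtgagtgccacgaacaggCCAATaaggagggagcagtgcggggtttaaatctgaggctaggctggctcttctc
CCNB2, chr15:59104996-59105145, plus strand: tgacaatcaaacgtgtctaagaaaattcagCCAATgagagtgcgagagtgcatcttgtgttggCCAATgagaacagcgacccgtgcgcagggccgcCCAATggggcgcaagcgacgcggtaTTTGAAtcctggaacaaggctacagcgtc
CCNE1, chr19:29811841-29811990, plus strand: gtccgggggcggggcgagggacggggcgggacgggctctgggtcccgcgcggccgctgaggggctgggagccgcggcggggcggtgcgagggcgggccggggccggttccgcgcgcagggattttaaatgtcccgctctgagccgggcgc

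The searched letters were TTTCCCGC, TTTCGCGC, TTTGCCGC and TTTGGCGC for E2F, TTTGAA and TTCGAA for the CHR, and CCAAT, on both strands, so that CCAAT on the opposite strand reads ATTGG. No motif overlapped another in the sequences shown. In the CDK1 window an E2F match began 128 bases before the start, CCAAT matches on the opposite strand began 78 and 46 bases before it, and CHR matches began 69 and 13 bases before it. CDC25A held an E2F match 44 bases before the start with CCAAT on the opposite strand at 110 and 58 bases before it. CCNB1 held CCAAT at 87 and 55 bases before the start, and CCNB2 held CCAAT at 120, 87 and 54 bases and a CHR match at 29 bases before the start. None of the letters occurred in the 300 bases given for CCNE1, from 250 before to 50 after its start. Over these 300-base promoters, E2F letters were found in 2 of the 8 genes, against 3.99% of 27305 genes with a promoter. CHR letters were found in 4 of 8 against 19.5%, and CCAAT in 7 of 8 against 39.7%. Among the 9886 genes with a promoter that were measured in CDK4/6 KD against scrambled siRNA, the shares were 6.54%, 15.7% and 43.1%. A gene was counted if any of its promoters held the letters, and CDK1 had 2 promoters and CDC25C 4. These matches describe letters in the sequence and not occupied sites. Only these exact letters were searched, so other spellings of the elements would have been missed, in CCNE1 as in the others.

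Library totals ran from 8983848 to 11176880 reads, so that 1 read was worth 0.0883 to 0.11 CPM (reads scaled to a common library size, with TMM factors that remove differences in RNA composition). With 1 library per condition, differences could not be set against a spread between replicates, and no test was made. The 95% intervals beside fold changes and ratios are exact (Clopper-Pearson), come from how the reads divided, and cover counting error only. CDK4 was at 354 CPM with scrambled siRNA and 71.9 CPM in CDK4/6 KD, a fold change of 0.203 (0.188 to 0.219), and CDK6 was at 536 and 129 CPM, a fold change of 0.241 (0.228 to 0.256). After PD0332991, which blocks the activity of the kinases, the fold changes against DMSO were 0.854 (0.808 to 0.903) for CDK4 and 0.93 (0.892 to 0.969) for CDK6. Both intervals lay below 1. All 12 hepatocyte markers, ALB and APOA1 among them, were counted above the floor of 3 reads in every library. Markers of other cell types moved between libraries as well. Of 9 keratinocyte markers that reached 10 reads, 8 were higher and 1, SFN, lower after PD0332991 than in DMSO, with a median log2 fold change of 3.3. In CDK4/6 KD against scrambled siRNA, 5 of 9 were higher and 4 lower. Of all 18 keratinocyte markers, 8, 15, 11 and 10 were above the floor in DMSO, PD0332991, scrambled siRNA and CDK4/6 KD, with summed levels of 207, 226, 368 and 210 CPM. SFN and KRT10 gave 96.7%, 61.5%, 96% and 89.9% of these reads, and without them the other 16 markers summed to 6.79, 86.9, 14.8 and 21.1 CPM. KRT5, a basal keratin, had 2, 113, 13 and 43 reads and KRT14, its partner, 9, 249, 31 and 74, whereas SFN had 1221, 563, 3266 and 1152. The 8 fibroblast markers summed to 49.7, 80.9, 9.07 and 23 CPM, and the 7 leukocyte markers, nearly all from LYZ, to 755, 521, 1036 and 511 CPM with CD3E at 0 throughout. The 5 endothelial markers together had 6 reads or fewer. The part of these shifts in the results below was not tested.

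The level of all 10 genes together was 806 CPM in DMSO, 630 CPM in scrambled siRNA, 333 CPM in CDK4/6 KD and 167 CPM in PD0332991. PD0332991 was the lowest library for 10 of 10 genes, and CDK4/6 KD lay below both control libraries for 9 of 10. DMSO was the highest library for 8 genes and scrambled siRNA for the remaining 2, CCNE1 and CDC25A. These orders were not counted over all genes. In the order of levels within each gene there are 30 pairs of neighbouring libraries, and in 4 of them the counting interval of the ratio held 1: CCNE1 and CCNE2 between scrambled siRNA and CDK4/6 KD, CCNE2 between CDK4/6 KD and PD0332991, and CCNB1 between DMSO and scrambled siRNA. In whole-culture RNA, fewer cycling cells and less RNA per cycling cell cannot be told apart.

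**Figure D1:**
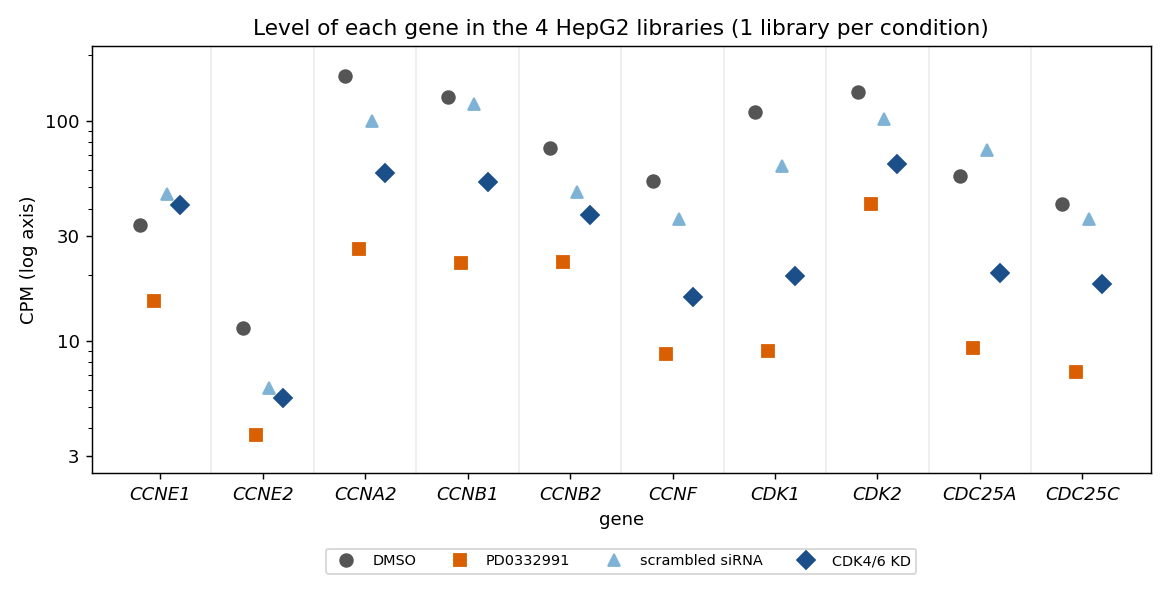
Level of each of the 10 genes in CPM (log axis), with 1 point for each of the 4 libraries (DMSO circles, PD0332991 squares, scrambled siRNA triangles, CDK4/6 KD diamonds). The PD0332991 point is the lowest for 10 of 10 genes, and the CDK4/6 KD point lies above DMSO for CCNE1 alone.

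Among the genes of the G1/S step, the intervals of the E cyclins in CDK4/6 KD against scrambled siRNA held 1, whereas CDC25A was far below its control. CCNE1, the more counted E cyclin, had 33.6 CPM in DMSO, 15.2 in PD0332991, 46.4 in scrambled siRNA and 41.5 in CDK4/6 KD. Its fold change was 0.896 (0.788 to 1.02) in CDK4/6 KD and 0.452 (0.366 to 0.553) after PD0332991. The knockdown therefore differed from scrambled siRNA by less than counting error, while the drug library lay 2.21-fold below DMSO. CCNE2, its paralog, was the least counted of the 10 genes, with 105 reads in DMSO, 34 in PD0332991, 65 in scrambled siRNA and 62 in CDK4/6 KD. The CCNE2 fold change was 0.902 (0.626 to 1.3) in CDK4/6 KD and 0.328 (0.214 to 0.482) after PD0332991, so the depth could not show a difference of the first size. The interval for the knockdown leaves room for a level up to 1.3 times that of scrambled siRNA or as low as 0.626 of it. Against DMSO the knockdown value of CCNE2 was 0.479 (0.342 to 0.659).

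CDK2, the kinase partner of cyclins E and A, had 135 CPM in DMSO, 42.1 in PD0332991, 102 in scrambled siRNA and 64 in CDK4/6 KD. Relative to control it was at 0.629 (0.571 to 0.691) in CDK4/6 KD and 0.312 (0.277 to 0.35) after PD0332991. CDC25A, the phosphatase that activates CDK2 at the G1/S step, had 56 CPM in DMSO, 9.23 in PD0332991, 74 in scrambled siRNA and 20.3 in CDK4/6 KD. This was the lowest fold change of the 10 genes in CDK4/6 KD, at 0.275 (0.236 to 0.318), with 229 of 13617 measured genes as low or lower. After PD0332991 it was 0.165 (0.129 to 0.208). Scrambled siRNA held more CDC25A than DMSO, and against DMSO the knockdown had a fold change of 0.363 (0.309 to 0.424).

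Among the genes of S phase, G2 and mitosis, CDK1 had the lowest levels relative to control. CDK1, the mitotic kinase, had 1003 reads (110 CPM) in DMSO, 82 (9.01 CPM) in PD0332991, 671 (62.7 CPM) in scrambled siRNA and 224 (19.8 CPM) in CDK4/6 KD. The drug library was 12.1-fold below DMSO, a fold change of 0.0825 (0.0647 to 0.103), with 45 of 13443 measured genes as low or lower. The knockdown was 3.16-fold below scrambled siRNA, a fold change of 0.316 (0.27 to 0.368). With the controls exchanged, CDK1 was at 0.144 (0.113 to 0.181) for PD0332991 against scrambled siRNA and 0.181 (0.155 to 0.209) for CDK4/6 KD against DMSO. CDK1 levels spanned 12.2-fold between the highest and lowest library, against 3.06-fold for CCNE1, 3.08-fold for CCNE2 and 3.21-fold for CDK2.

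CCNA2, the cyclin of S phase and G2, had 161 CPM in DMSO, 26.1 in PD0332991, 100 in scrambled siRNA and 58 in CDK4/6 KD. Its fold change was 0.578 (0.524 to 0.638) in CDK4/6 KD and 0.163 (0.141 to 0.187) after PD0332991. Scrambled siRNA was itself at 0.625 of DMSO for this gene, a step of nearly the same size as that from scrambled siRNA to the knockdown. With the controls exchanged, CCNA2 was at 0.361 (0.329 to 0.396) in CDK4/6 KD and 0.261 (0.225 to 0.3) after PD0332991. The last bases of CCNA2 lie on top of those of EXOSC9, which is read from the opposite strand and shares 578 bases with it in GENCODE 29 (GRCh38). EXOSC9 had 952, 345, 729 and 595 reads in DMSO, PD0332991, scrambled siRNA and CDK4/6 KD. EXOSC9 had a fold change of 0.772 for the knockdown and 0.364 for the drug. Whether reads were counted by strand is not given in the sources used here, so reads of the overlapping ends cannot be told apart.

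CCNB1, the main mitotic cyclin, had 128 CPM in DMSO, 22.6 in PD0332991, 119 in scrambled siRNA and 52.7 in CDK4/6 KD. The controls differed by less than counting error for CCNB1, and the fold change was 0.442 (0.4 to 0.487) in CDK4/6 KD and 0.177 (0.151 to 0.205) after PD0332991. CCNB2, the B cyclin found at the Golgi, had 75.7 CPM in DMSO, 23 in PD0332991, 47.4 in scrambled siRNA and 37.4 in CDK4/6 KD. Its fold change in CDK4/6 KD was 0.789 (0.692 to 0.899), the nearest to 1 among the 8 genes whose interval lay below 1, and it was 0.304 (0.258 to 0.354) after PD0332991. Against DMSO the knockdown value of CCNB2 was 0.494 (0.436 to 0.558), past 2-fold, and the drug value against scrambled siRNA was 0.485 (0.41 to 0.57). CCNB2 has 1 annotated processed pseudogene and shares its 3′ end with a transcript of the same strand that the tables do not count, so its reads are less certain than those of CCNB1.

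CCNF, the F-box cyclin, had 53.4 CPM in DMSO, 8.68 in PD0332991, 35.9 in scrambled siRNA and 15.8 in CDK4/6 KD. Its fold change was 0.441 (0.367 to 0.528) in CDK4/6 KD and 0.163 (0.126 to 0.206) after PD0332991, close to the values of CCNB1. CDC25C, the phosphatase that activates CDK1 at mitotic entry, had 41.8 CPM in DMSO, 7.25 in PD0332991, 35.8 in scrambled siRNA and 18.1 in CDK4/6 KD. Its fold change of 0.507 (0.425 to 0.601) in CDK4/6 KD was just short of a 2-fold difference, and after PD0332991 it was 0.174 (0.131 to 0.226). The 3′ ends of CCNE2, CCNF and CDK2 also lie over genes of the opposite strand (INTS8, a lincRNA and PMEL), of which PMEL had at most 12 reads and INTS8 124, 49, 73 and 88 reads in DMSO, PD0332991, scrambled siRNA and CDK4/6 KD. INTS8 had a fold change of 1.14 for the knockdown and 0.399 for the drug. As with CCNA2 and EXOSC9, reads of the overlapping ends of CCNE2 and INTS8 cannot be told apart.

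Taking the 10 genes as a group, all 10 were below scrambled siRNA in CDK4/6 KD, against 50.3% of genes measured. All 10 were below DMSO after PD0332991, against 48.4%. In CDK4/6 KD, 4 of 10 (CDC25A, CDK1, CCNF and CCNB1) were at least 2-fold lower, against 7.62% of the 13617 genes measured. At least 1.5-fold lower were 7 of 10, against 17.4%. The whole interval lay below 1 for 8 of 10, against 31.9% of genes, and below 0.5 for 3 of 10 (CDC25A, CDK1 and CCNB1), against 3.22%. The median log2 fold change was -0.89, beside -0.0036 over all genes, and the summed reads had a fold change of 0.529 (0.508 to 0.551). After PD0332991, 10 of 10 were at least 2-fold lower, against 7.07% of the 13443 genes measured. The interval lay below 1 for 10 of 10, against 28.6%, and below 0.5 for 9 of 10, CCNE1 being the exception, against 3.38%. Here the median log2 fold change was -2.51, beside 0.018 over all genes, and the summed reads had a fold change of 0.207 (0.196 to 0.219).

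The 4 genes of the G1/S step had a median log2 fold change of -0.41 in CDK4/6 KD and -1.65 after PD0332991. The 6 genes of S phase, G2 and mitosis had -1.08 and -2.57. By value, CDC25A stood nearer to the second group in both comparisons, and CCNB2 nearer to the first.

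**Figure D2:**
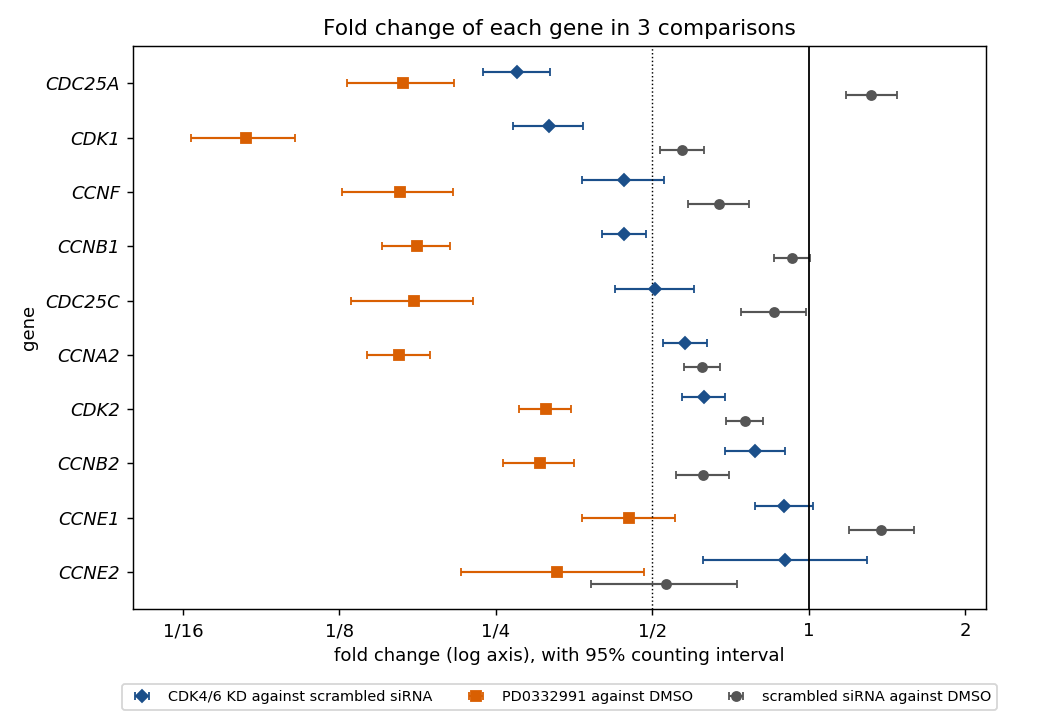
Fold change of each gene (log axis) with its 95% counting interval in CDK4/6 KD against scrambled siRNA (diamonds), PD0332991 against DMSO (squares) and scrambled siRNA against DMSO (circles), genes sorted by the first. The solid line marks no change and the dotted line 2-fold lower: 10 of 10 squares and 4 of 10 diamonds lie past the dotted line, and the 2 circles to the right of the solid line are CDC25A and CCNE1.

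The control libraries were then compared with each other, since neither had CDK4/6 inhibited. Between scrambled siRNA and DMSO, 8 genes were lower and 2 higher, where 49.3% of all genes measured were lower. The median log2 fold change of the 10 was -0.49 and their summed reads were at 0.781 (0.756 to 0.808). None of the 10 was at least 2-fold lower, against 6.64% of 13303 genes, and 4 of 10 were at least 1.5-fold lower, against 15.7%. The interval lay below 1 for 7 of 10, against 28% of genes, and above 1 for 2 of 10, against 28.3%. CCNE2 had the lowest fold change of the 10, at 0.531 (0.382 to 0.727), followed by CDK1 at 0.571 (0.517 to 0.631). CCNE1 was higher in scrambled siRNA, at 1.38 (1.19 to 1.6), and so was CDC25A, at 1.32 (1.18 to 1.48). The counts of the paralogous E cyclins therefore differed between the control libraries in opposite directions. Those of CCNE2 may include reads of INTS8, which had 124 reads in DMSO and 73 in scrambled siRNA. Every comparison shares the DMSO or the scrambled siRNA library with another, so values against the other control are only set side by side. Against DMSO, CDK4/6 KD was at least 2-fold lower for 9 of 10 genes (8.16% of 13512 genes), and CCNE1 was higher, at 1.24 (1.07 to 1.43). Against scrambled siRNA, PD0332991 was at least 2-fold lower for 9 of 10 genes (8.17% of 13552 genes), the exception being CCNE2 at 0.618 (0.394 to 0.945).

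Ratios of the reads of 2 genes within 1 library need no scaling between libraries, and their change between libraries shows how the composition of the machinery differed. CDK1 had 0.813 reads for each read of CDK2 in DMSO (0.747 to 0.884) and 0.214 in PD0332991 (0.167 to 0.272). The same ratio was 0.616 in scrambled siRNA (0.559 to 0.679) and 0.309 in CDK4/6 KD (0.265 to 0.36). The ratio was thus 3.8-fold lower with the drug and 1.99-fold lower with the knockdown, and the intervals did not overlap between a treated library and its control. The mitotic kinase was lower relative to CDK2 in both treated libraries.

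The ratio of CCNB1 to CCNB2 was 1.7 in DMSO (1.54 to 1.86) and 0.986 in PD0332991 (0.809 to 1.2), a 1.72-fold difference. It was 2.52 in scrambled siRNA (2.27 to 2.8) and 1.41 in CDK4/6 KD (1.24 to 1.6), a 1.79-fold difference. CCNB1 reads were lower relative to CCNB2 in each treated library than in its control, by similar factors. The controls differed as well, scrambled siRNA lying 1.48-fold above DMSO, and the interval of CDK4/6 KD overlapped that of DMSO.

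Relative to CCNE1, the later cyclins were also lower. CCNA2 had 4.78 reads for each CCNE1 read in DMSO (4.23 to 5.43), 1.72 in PD0332991 (1.39 to 2.14), 2.17 in scrambled siRNA (1.94 to 2.41) and 1.4 in CDK4/6 KD (1.24 to 1.58). For CCNB1 to CCNE1 the ratios were 3.82 in DMSO (3.37 to 4.35), 1.49 in PD0332991 (1.2 to 1.87), 2.57 in scrambled siRNA (2.32 to 2.86) and 1.27 in CDK4/6 KD (1.12 to 1.43). CCNE1 accordingly took 4.17% of the reads of the 10 genes in DMSO, 9.08% in PD0332991, 7.36% in scrambled siRNA and 12.5% in CDK4/6 KD. The CCNA2 to CCNE1 ratio differed 2.21-fold between the controls, more than the 1.55-fold between scrambled siRNA and CDK4/6 KD.

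The remaining pairs differed between the arms. CCNE1 had 7.63 reads for each CCNE2 read in scrambled siRNA (5.88 to 10.04) and 7.58 in CDK4/6 KD (5.81 to 10.05), while it had 2.92 in DMSO (2.34 to 3.68) and 4.06 in PD0332991 (2.77 to 6.09). The intervals overlapped within each arm, and the transfected libraries both lay above DMSO. Here too, reads of INTS8 may be among those of CCNE2. CDC25C had 0.484 reads for each CDC25A read in scrambled siRNA (0.427 to 0.547) and 0.891 in CDK4/6 KD (0.735 to 1.08), a 1.84-fold higher ratio. In the drug arm the ratio was 0.746 in DMSO (0.652 to 0.853) and 0.786 in PD0332991 (0.56 to 1.1), with overlapping intervals. The controls differed as well, scrambled siRNA lying 1.54-fold below DMSO, and the interval of CDK4/6 KD overlapped that of DMSO.

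**Figure D3:**
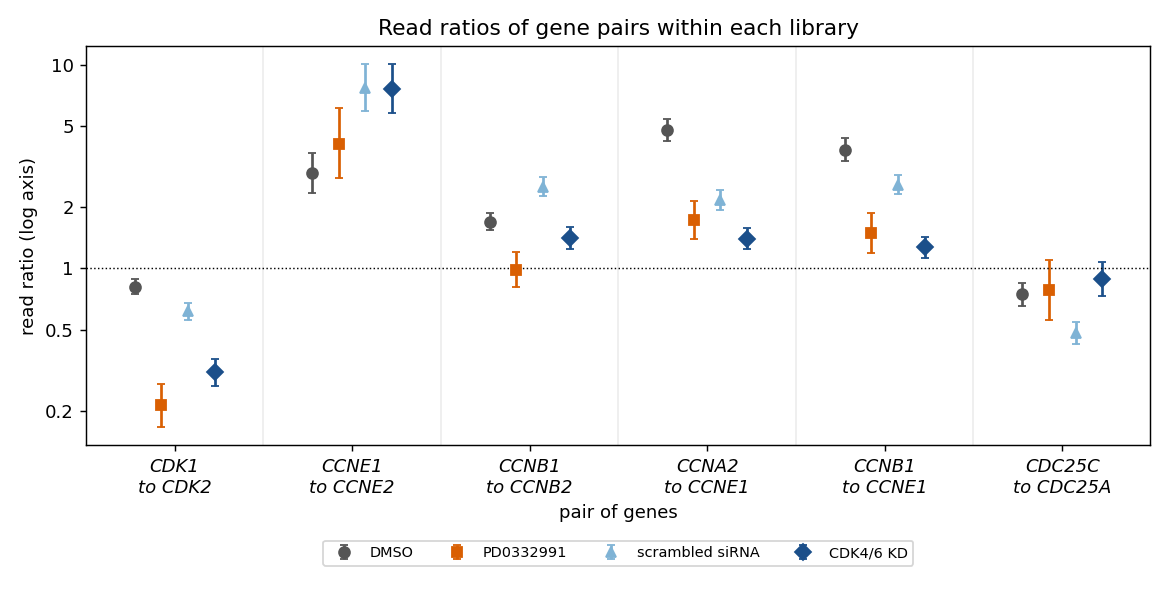
Read ratio of 6 pairs of genes within each library (log axis) with exact 95% counting intervals; the dotted line marks equal reads. CDK1 to CDK2 and CCNB1 to CCNB2 lie lower in each treated library than in its control, and CCNE1 to CCNE2 lies at 7.63 and 7.58 in the transfected libraries.

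Genes that act on the same kinases were described as lists, with the share over all genes in parentheses beside each count. Of the CDK inhibitors and inhibitory kinases, 4 of 5 were counted highly enough, and at least 2-fold lower were 1 in CDK4/6 KD (all genes 7.62%) and 2 after PD0332991 (7.07%). CDKN1A (p21), which binds and blocks cyclin-CDK2 complexes, had 131 CPM in DMSO, 166 in PD0332991, 331 in scrambled siRNA and 117 in CDK4/6 KD. Its fold change was 0.354 (0.332 to 0.377) in CDK4/6 KD but 1.27 (1.17 to 1.37) after PD0332991, and scrambled siRNA stood 2.53-fold above DMSO. CDKN1A in CDK4/6 KD was therefore near its level in DMSO, and the scrambled siRNA library was the one apart. Against scrambled siRNA, PD0332991 was at 0.5003, so the direction in the drug arm turned with the control. PKMYT1, which phosphorylates and restrains CDK1, had fold changes of 0.528 (0.447 to 0.621) and 0.185 (0.14 to 0.238).

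Of the other activators and subunits, 8 of 10 were counted highly enough, and 1 in CDK4/6 KD (all genes 7.62%) and 3 after PD0332991 (7.07%) were at least 2-fold lower. CKS1B and CKS2, the small subunits that dock on CDK1 and CDK2, had fold changes of 0.428 (0.398 to 0.46) and 0.59 (0.515 to 0.675) in CDK4/6 KD. After PD0332991 CKS1B was at 0.263 (0.241 to 0.287) and CKS2 at 0.17 (0.133 to 0.211). CDC25B, the third CDC25 phosphatase, was at 0.683 (0.608 to 0.765) in CDK4/6 KD and 0.346 (0.302 to 0.395) after PD0332991, so it was nearer to control in both arms than CDC25A and CDC25C. The list as a whole had a median log2 fold change of -0.07 in CDK4/6 KD and -0.25 after PD0332991.

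Of 7 ubiquitin ligase parts, 1 in CDK4/6 KD (all genes 7.62%) and 5 after PD0332991 (7.07%) were at least 2-fold lower, with median log2 fold changes of -0.54 and -1.41. FBXO5, the inhibitor of the anaphase-promoting complex, was at 0.481 (0.399 to 0.577) and 0.145 (0.109 to 0.188), and UBE2C, the ubiquitin-conjugating enzyme of that complex, at 0.576 (0.511 to 0.648) and 0.171 (0.145 to 0.201). With the controls exchanged UBE2C was at 0.346 in CDK4/6 KD and 0.286 after PD0332991. SKP2, which marks the CDK inhibitor p27 for destruction and was named after its values were seen, had 113 CPM in DMSO, 50.1 in PD0332991, 86.5 in scrambled siRNA and 144 in CDK4/6 KD. Its fold change was 1.66 (1.53 to 1.81) in CDK4/6 KD and 0.445 (0.397 to 0.497) after PD0332991.

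Of 10 E2F factors and partners, 4 in CDK4/6 KD (all genes 7.62%) and 5 after PD0332991 (7.07%) were at least 2-fold lower, with median log2 fold changes of -0.75 and -0.98. E2F2, an activator, had 248 reads in DMSO, 10 in PD0332991, 147 in scrambled siRNA and 88 in CDK4/6 KD, with ratios to control of 0.567 (0.429 to 0.742) and 0.0422 (0.0192 to 0.0757). With the controls exchanged these were 0.288 and 0.0833. The repressors E2F7 and E2F8 were counted at few reads. E2F7 had 54, 9, 95 and 19 reads in DMSO, PD0332991, scrambled siRNA and CDK4/6 KD, and E2F8 had 99, 6, 45 and 21.

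Of 10 genes of the MuvB core, the pocket proteins, MYBL2 and FOXM1, 1 in CDK4/6 KD (all genes 7.62%) and 6 after PD0332991 (7.07%) were at least 2-fold lower, with median log2 fold changes of 0.05 and -1.06. MYBL2, the B-MYB factor that activates G2 and mitotic genes with MuvB, had 203 CPM in DMSO, 22.8 in PD0332991, 153 in scrambled siRNA and 50.8 in CDK4/6 KD. Its fold changes of 0.332 (0.302 to 0.366) and 0.113 (0.0972 to 0.13) stand beside 0.316 and 0.0825 for CDK1. LIN9, a MuvB subunit, had 58, 33, 33 and 46 reads in DMSO, PD0332991, scrambled siRNA and CDK4/6 KD, too few to place its knockdown value on either side of 1.

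By their medians, cyclins and kinases outside this machinery were nearer to control. None of 11 transcription cyclins and CDKs was at least 2-fold lower or higher in either comparison, and their median log2 fold changes were -0.13 in CDK4/6 KD and 0.06 after PD0332991. The farthest of them were CCNK, the partner of CDK12 and CDK13, at 0.563 (0.472 to 0.669) in CDK4/6 KD, and CCNL2, a cyclin linked to splicing, at 1.53 (1.43 to 1.64) after PD0332991. None of 9 other cyclins, the D cyclins among them, passed 2-fold in either direction, with medians of 0.08 and -0.06. In that list CCNI was at 0.534 (0.492 to 0.578) in CDK4/6 KD and 1.26 (1.17 to 1.35) after PD0332991, and CCNDBP1, a cyclin D-binding protein, at 1.71 (1.36 to 2.17) after PD0332991. In CDK4/6 KD, 4 of the 9 were lower and 5 higher. The D cyclins were among the lower, CCND1 at 0.626 (0.595 to 0.66), CCND2 at 0.564 (0.341 to 0.903) and CCND3 at 0.558 (0.426 to 0.723). CCNK, CCNI and the D cyclins were thus farther from control in CDK4/6 KD than CCNB2 at 0.789. At least 2-fold higher were 9.19% of all genes in CDK4/6 KD and 7.49% after PD0332991, and no gene of the 7 lists or of the 10 was among them.

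**Figure D4:**
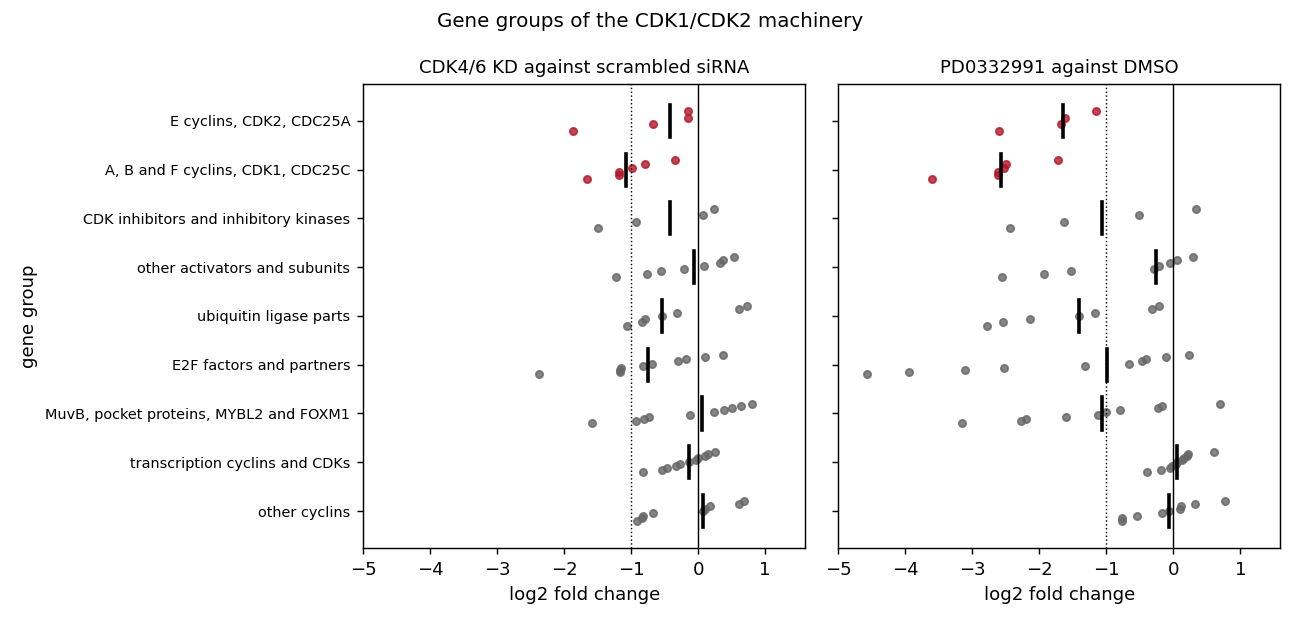
Log2 fold change of each gene counted highly enough (points) and the median of its group (black bars) in CDK4/6 KD against scrambled siRNA and PD0332991 against DMSO; red groups hold the 10 genes, the dotted line marks 2-fold lower. The group of A, B and F cyclins with CDK1 and CDC25C has medians of -1.08 and -2.57, and the transcription cyclins and CDKs have medians of -0.13 and 0.06.

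Genes with a like pattern over the 4 libraries were found by the Euclidean distance between log2 CPM centred on each gene's own mean. The search covered 9219 other genes that averaged 100 reads or more and had reads in every library. All 10 genes entered their mean pattern whatever their reads, CCNE2 with fewer than that average. Nearest to the mean pattern of the 10 genes were RBL1 (p107, a pocket protein) at 0.072, CDC20 (an activator of the anaphase-promoting complex) at 0.101, BARD1 (the partner of BRCA1) at 0.108, FAM72D at 0.11 and CENPW (a centromere protein) at 0.113. RBL1 had 36.1 CPM in DMSO, 7.47 in PD0332991, 27.8 in scrambled siRNA and 15.9 in CDK4/6 KD. Nearest to CDK2 alone were FANCI at 0.0773, TMEM237 at 0.118 and SPIN4 at 0.122. Among the 10 themselves, CCNA2 at 0.28 and CDC25C at 0.289 lay nearest to their common mean and CCNE1 at 1.13 and CDK1 at 1.1 farthest from it. Each of the 10 is part of that mean, so their distances are not on a par with those of other genes. CCNE1 was above its own mean in CDK4/6 KD and only a little above it in DMSO, and CDK1 had the widest range. These distances rest on 4 points a gene and on libraries that the genes share, and FAM72D belongs to a family of near-identical copies between which reads may be split.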

How the data were processed

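The authors deposited whole-number read counts per gene symbol for 4 HepG2 libraries (QuantSeq 3′ mRNA kit, 500 ng RNA, single-end reads), 1 table per library and 1 library per condition. The submitters' processing notes name Bowtie2, edgeR and hg19, and the counter, annotation and strand setting are not given in the sources used here. The tables hold no other columns of values (0 left unused). Counts of the 286 repeated symbols were summed, and none of the 10 genes was repeated. Libraries were scaled with TMM (edgeR 4.0.16, R 4.3.3), with factors from 0.957 to 1.03. Fold changes added 0.5 reads scaled to library size and used genes that reached 10 reads in 1 of the libraries compared. Intervals are exact 95% Clopper-Pearson intervals (scipy 1.17.1). They were tried on simulated counts that held counting error alone, which cannot show how they do with variation between libraries. Without replicates a quasi-likelihood fit was not possible, and no p-value was computed. The list genes named are, for each list, those with the largest log2 fold change of either sign in each of the 3 comparisons. SKP2 and the D cyclins were named besides, after their values were seen. The 10 genes and the lists were chosen with earlier results of these data known. Alternatives were DESeq2 1.42.0 size factors, total counts, quantile normalization (limma 3.58.1), 5 added reads, filters of 50 reads or none, keeping only the largest entry of each repeated symbol, the control of the other arm, a 1.5-fold threshold and whole intervals past 2-fold.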

Additional observations from a re-analysis of the deposited data

Results flagged for a closer look

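Of 80 genes looked at (the 10 genes, the 7 lists and the other genes named with values), 12 had intervals on opposite sides of 1 in the knockdown and drug arms, and none of the 10 was among them. With 1 library per condition the difference between the arms was not tested. Opposite intervals were not counted over all genes, so whether 12 of 80 is a usual share cannot be said. Over all genes, the interval lay below 1 for 31.9% in CDK4/6 KD and 28.6% after PD0332991. For 6 of the 12 the directions, read from the fold change without its interval, were also opposite when both arms were set against DMSO and when both were set against scrambled siRNA. Of these, SKP2 had a fold change of 1.66 in CDK4/6 KD and 0.445 after PD0332991, CCNG2 1.53 and 0.591, and CDKN1B 1.18 and 0.701. In the other direction, CCNI had 0.534 and 1.26, CCND1 0.626 and 1.08, and CDK19 0.685 and 1.16. Against DMSO, the CDK4/6 KD intervals of CCNG2 (0.756 to 1.42) and CDKN1B (0.963 to 1.22) held 1. So did the interval of CCNG2 after PD0332991 against scrambled siRNA (0.579 to 1.32), which leaves these directions uncertain. For the remaining 6 the directions were the same against at least 1 of the controls. CDKN1A had 0.354 and 1.27, but 0.896 in CDK4/6 KD against DMSO and 0.5003 after PD0332991 against scrambled siRNA, so both arms were lower against scrambled siRNA. RB1 had 1.75 and 0.498, ALB 2.01 and 0.919, CCNG1 1.61 and 0.886, CDK7 1.3 and 0.82, and RBBP4 1.17 and 0.854.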

How the results depend on the processing

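For the 10 genes, DESeq2 size factors, 5 added reads, a filter of 50 reads or none, and keeping only the largest entry of each repeated symbol gave the same counts of genes at least 2-fold lower in the 3 comparisons, with medians and summed reads inside the main counting intervals, and the last of these left each pair ratio as it was. Summed reads in CDK4/6 KD, 0.529 in the main analysis, were 0.569 with total counts and 0.558 with quantile normalization, and those of scrambled siRNA against DMSO, 0.781, were 0.747 with total counts. With DMSO as the control of CDK4/6 KD, 9 genes instead of 4 were at least 2-fold lower, the median was -1.24 and the summed reads were 0.413. With scrambled siRNA as the control of PD0332991, the median was -1.99 and the summed reads were 0.265. In that setting, of genes whose main interval excluded 1, CDKN1A, LIN9, CCNJ, ALB, CCNG1, CDK7 and RBBP4 changed direction, to 0.5003, 1.17, 1.47, 1.19, 1.34, 1.09 and 1.25. The new intervals of LIN9 and CDK7 held 1. With DMSO as the control of CDK4/6 KD so did CDK7, RB1 and RBBP4 change, to 0.971 (0.819 to 1.15), 0.95 (0.814 to 1.11) and 0.802 (0.743 to 0.865). CCNE1, LIN9 and CCNJ, whose main intervals held 1, crossed it there, to 1.24 (1.07 to 1.43), 0.643 (0.425 to 0.959) and 0.506 (0.405 to 0.628). Other crossings had intervals that held 1 with both controls. A 1.5-fold threshold gave 7 genes in CDK4/6 KD (17.4% of all genes) and 4 in scrambled siRNA against DMSO (15.7%), and asking for the whole interval past 2-fold gave 3 in CDK4/6 KD and 9 after PD0332991. No paired analysis was possible because each condition had 1 library. With 62 and 65 reads of CCNE2 in the transfected libraries, depth limits that gene the most.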
